A study of Mus musculus with 15 samples.

Results

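The infarcted left ventricle of mice given GSK-343, an inhibitor of the histone methyltransferase EZH2, was compared with the left ventricle of sham-operated mice. The comparison holds 5 GSK and 5 Sham libraries, 10 of the 15 libraries in the series, chosen by the treatment given in the sample names. The other 5, from infarcted mice given vehicle and called MI, are quoted beside it where their values bear on a member. All animals were female C57BL/6JRj mice aged 12 to 18 weeks, and all hearts were taken 8 days after surgery. In the GSK group the coronary artery was tied permanently and GSK-343 was injected into the peritoneum at 20 mg/kg, in 20% Captisol, each day from 6 h after the operation to day 7. The labels give vehicle to the control animals. Sham animals went through surgery without the infarct. Sham replicates 1 and 2 are each a mix of RNA from 2 animals, and every other library is named for 1 animal. The animal number S5 stands in the names of both Sham replicate 2 and MI replicate 3. These were taken as separate animals because the groups differ, which the labels do not state. GSK replicates 1 and 2 carry the letter G in their names where all others carry S, and the labels do not say what the letter stands for. No sham group received GSK-343, so infarct and drug cannot be told apart in this comparison.

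EZH2 is the catalytic subunit of Polycomb repressive complex PRC2, which trimethylates lysine 27 of histone H3 and keeps developmental genes silent. After a permanent coronary ligation, dead heart muscle is cleared by neutrophils and macrophages, and fibroblasts then multiply and lay down a collagen scar. The surviving cardiomyocytes re-express genes of the fetal heart and lower the genes for burning fatty acids, the main fuel of the adult ventricle. The comparison asks which of these changes were present in infarcted hearts under the inhibitor.

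Each library held 22.3 to 26.8 M assigned fragments. Per library 11787 to 12288 genes reached 1 FPKM, the unit of fragments divided by gene length and by a scaling total. That total was not the number of assigned fragments. In every Sham library it was the smaller of the 2. In GSK it ran from 21.5 M in replicate 4 (22.8 M assigned) to 27.4 M in replicate 1 (24.6 M assigned). The ventricular label was matched by Myh6, the heavy chain of adult heart myosin, at 2719 to 3711 FPKM in Sham and 2085 to 3102 FPKM in GSK. The skeletal muscle myosins Myh1, Myh2 and Myh4 stayed at or below 0.013 FPKM in every Sham and GSK library. Markers of the atrium varied among libraries of 1 group: Myl7, the atrial myosin light chain, ranged from 59.0 to 748.8 FPKM in Sham and from 91.4 to 269.6 FPKM in GSK, and Bmp10 was at 94.9 FPKM in Sham replicate 4 and at or below 0.04 FPKM in the other 9 libraries. The 13 messenger RNAs of the mitochondrial genome took 37.8% to 38.8% of FPKM in Sham, and 30.0%, 30.6%, 45.0%, 46.8% and 30.9% in GSK replicates 1 to 5. The mean share was 38.3% ± 0.444 (SD, n = 5) in Sham and 36.7% ± 8.48 (SD, n = 5) in GSK, with an exact two-sided permutation p of 0.667, where 0.00794 is the smallest that 5 libraries against 5 allow. GSK replicates 3 and 4 lay above all Sham libraries and the other 3 GSK libraries below them. Without replicates 3 and 4 the calls of Ezh2, Gm48483, Lmod1, Lum, Myh6, Nppb, Tbx20 and Wnt5a against Sham were lost (adjusted p in limma from 0.0507 for Lmod1 to 0.108 for Lum).

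Of 12015 genes that reached 1 FPKM in 5 or more of these libraries, 3311 (27.6%) were called at an adjusted p under 0.05 in limma's moderated test on log2(FPKM + 1). Of these, 1691 (14.1% of those tested) were higher and 1620 (13.5%) lower in GSK hearts. A change of at least 2-fold on this scale was seen in 156 of the genes called higher and 77 of those called lower. The 5 GSK libraries did not overlap the 5 Sham libraries in 2183 genes (18.2%), of which 1205 were higher and 978 lower. Among the tested genes, 85 had no Sham library at 1 FPKM (83 called higher) and 16 no GSK library. These passed the filter through 1 group only, so their groups could not overlap. The 2 groups separated on the first principal component, which held 49.0% of the variance, with Sham between -27.5 and -15.02 and GSK between 7.96 and 32.8. The second component (17.7%) set GSK replicates 3 and 4, at 24.8 and 23.0, apart from the other GSK libraries at -14.98 to -10.2. The spread of log2 values between libraries was larger in GSK than in Sham in 73.7% of genes, with a median SD of 0.17 against 0.11. The balance of higher and lower calls rested on the scaling: with the mitochondrial genes left out and totals equalised, the median of all genes moved from -0.02 to 0.09 and the calls became 2453 higher and 765 lower, 76.2% of calls higher against 51.1% as reported. The number of lower calls was 1023 without Sham replicate 4 and 977 without Sham replicate 5.

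The gene lists ran from scar matrix at one end to fatty acid oxidation at the other. Median differences of the tested members were 1.93 for matricellular and adhesive matrix proteins, 1.20 for collagens and 0.74 for monocyte and macrophage genes. At the low end stood mitochondrial fatty acid oxidation (median -0.57), complex I of the respiratory chain (-0.51) and branched-chain amino acid catabolism (-0.45). The median over all genes tested was -0.02. Counts of members are read below against the 14.1% of genes called higher and the 13.5% called lower. In bulk tissue, more RNA per cell of a type and more cells of that type cannot be told apart.

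**Figure D1:**
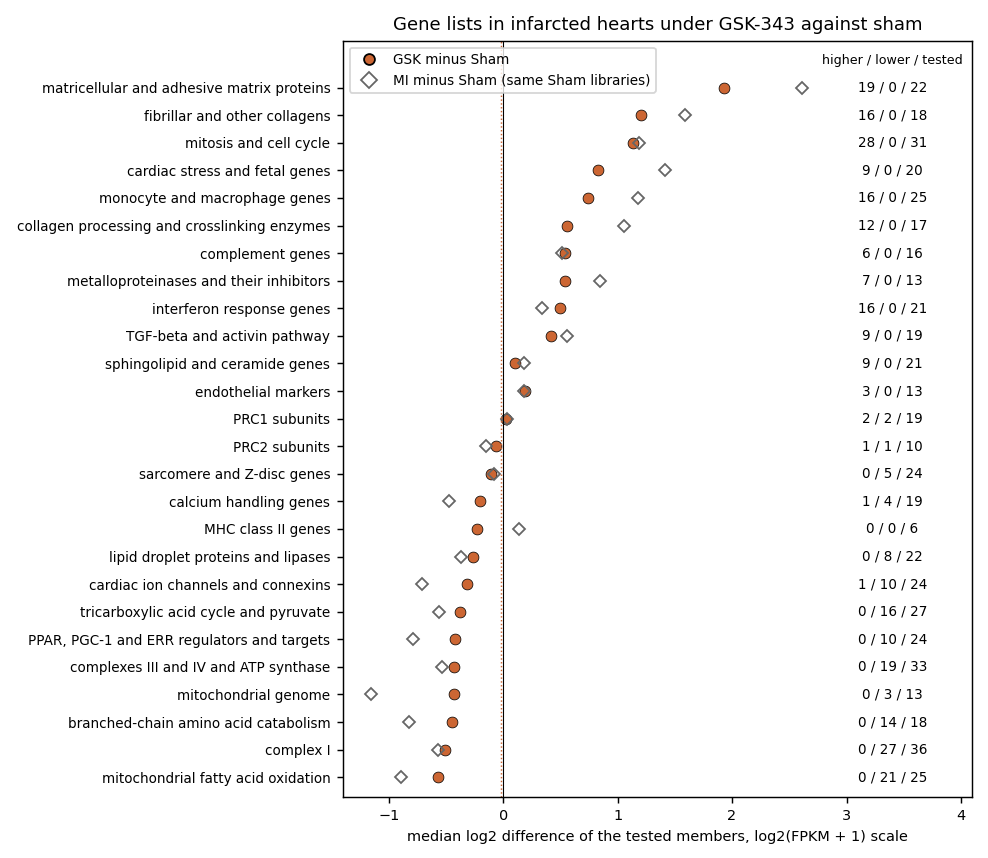
Median log2 difference of the tested members of 26 gene lists on the log2(FPKM + 1) scale, GSK minus Sham as filled circles and MI minus Sham as open diamonds, with the numbers of members called higher, called lower and tested in GSK against Sham at the right. The dotted line marks the median of all genes; both differences use the same 5 Sham libraries, and the matricellular list (1.93) and the fatty acid oxidation list (-0.57) stand at the 2 ends. Of the 31 tested mitosis genes, 17 passed the filter through GSK libraries only, as did 1 collagen, 2 matricellular, 1 macrophage and 1 stress gene.

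The 12 largest rises among protein-coding genes whose groups did not overlap were Postn, Cthrc1, Lox, Col8a1, Wisp2, Serpina3n, Timp1, Thbs4, Ankrd1, Spp1, Ccl8 and Eln, with log2 differences from 3.15 down to 2.12. Of these, 9 (all but Serpina3n, Ankrd1 and Ccl8) encode proteins of the extracellular matrix or its enzymes and inhibitors. Cthrc1, a collagen triple helix repeat protein secreted in wounds, had 0.141, 0.606, 0.545, 0.770 and 0.117 FPKM in Sham and 81.0, 3.503, 4.05, 4.30 and 29.7 FPKM in GSK replicates 1 to 5. It passed the filter through GSK libraries only, so its groups could not overlap. GSK replicates 1 and 5 stood above the other 3 (log2 difference 3.15 ± 0.73 SE, adjusted p = 0.0105, a call lost in voom on the recovered fragments). Serpina3n, a secreted protease inhibitor of the acute phase, rose from 4.07 to 7.40 FPKM in Sham to 14.0 to 71.6 FPKM in GSK. Wisp2, a matricellular protein of the CCN family, rose from 1.35 to 5.66 FPKM to 12.1 to 75.9 FPKM. Eln, which encodes elastin, was at 8.51 to 12.7 FPKM in Sham and at 369.8, 26.3, 15.4, 25.2 and 54.5 FPKM in GSK (log2 difference 2.12 ± 0.68 SE, adjusted p = 0.0388). GSK replicate 1 stood far above the others for Eln, and the call was lost without GSK replicate 5 (adjusted p = 0.0761) or without any 1 Sham library (0.0577 to 0.0794).

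Among the 12 largest falls were Retnla, Ces1d, Lgals4, Gm17428, Tbc1d10c, mt-Co2, Acot1, Kcnv2, Cryba4, Ano10 and Stard10, with log2 differences from -2.01 to -1.25. Ces1d, a carboxylesterase that splits triglycerides (chr8:93166068-93197838 in mm10, minus strand), had 58.1, 71.1, 80.4, 90.5 and 126.5 FPKM in Sham and 13.1, 29.1, 38.4, 22.0 and 11.3 FPKM in GSK. Its highest GSK value lay below its lowest Sham value (log2 difference -1.95 ± 0.32 SE, adjusted p = 0.00231). Retnla, a secreted resistin-like protein made by alternatively activated macrophages and fat tissue, was at 4.14 to 17.9 FPKM in Sham and 0.670 to 2.31 FPKM in GSK (log2 difference -2.01 ± 0.38 SE). Cryba4, a beta crystallin, fell from 6.62 to 9.79 FPKM to 2.06 to 3.91 FPKM, and Ano10, a member of the anoctamin family, from 8.56 to 15.3 FPKM to 3.89 to 4.37 FPKM. The 5 GSK values of Ano10 lay close together. Stard10 had 22.0, 16.1, 45.4, 48.5 and 17.4 FPKM in Sham and 7.23 to 14.2 FPKM in GSK. Its Sham values were highest in replicates 3 and 4, where the atrial light chain Myl7 was also highest (748.8 and 576.8 FPKM). The part of atrial tissue in the fall of Stard10 was not tested.

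Genes of the scar matrix were higher as a block. Of 18 tested collagen genes 16 were called higher and none lower, of 22 matricellular and adhesive proteins 19 and none, and of 17 enzymes that process or crosslink collagen 12 and none. Among those called, 1 collagen and 2 matricellular genes passed the filter through GSK libraries only. Postn, which encodes periostin of activated fibroblasts (chr3:54361109-54391037, plus strand), had 15.2, 15.6, 15.3, 9.89 and 5.56 FPKM in Sham and 217.7, 59.3, 70.7, 75.6 and 234.9 FPKM in GSK. No GSK value overlapped Sham, and replicates 1 and 5 were the highest of the GSK libraries (log2 difference 3.15 ± 0.42 SE, adjusted p = 0.00108). Col1a1, the main chain of fibrillar type I collagen (chr11:94936224-94953042, plus strand), had 32.5, 31.2, 31.7, 21.2 and 18.99 FPKM in Sham. In GSK it had 393.4, 62.0, 64.7, 65.8 and 172.1 FPKM, with the same 2 libraries high (log2 difference 2.05 ± 0.47 SE, adjusted p = 0.00995). Col3a1, the type III chain, rose from 38.8 to 55.3 FPKM to 97.6 to 537.2 FPKM. Sparc, a collagen-binding glycoprotein (chr11:55394500-55423183, minus strand), rose from 75.4 to 106.5 FPKM to 220.7 to 663.5 FPKM (log2 difference 1.91 ± 0.28 SE, adjusted p = 0.00151). Fbn1, the microfibril protein fibrillin-1, rose from 6.18 to 11.4 FPKM to 21.1 to 58.4 FPKM, and Fbln2, the basement membrane protein fibulin-2, from 14.9 to 21.3 FPKM to 35.5 to 77.4 FPKM.

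Among the enzymes, Lox, the lysyl oxidase that crosslinks collagen, had 2.15, 1.204, 1.67, 1.34 and 1.11 FPKM in Sham and 64.2, 6.66, 7.38, 9.02 and 38.8 FPKM in GSK. Its GSK libraries were all above Sham and spread widely among themselves (log2 difference 2.83 ± 0.55 SE, adjusted p = 0.00514). Loxl2, a relative of Lox, rose by 1.80 ± 0.27 (SE) on the log2 scale, and Adamts2, the protease that trims procollagen, by 1.64 ± 0.26 (SE). The list of crosslinking enzymes kept 7 higher calls without the mixed Sham libraries. Of 10 matrix proteoglycans 4 were called higher and none lower. Bgn, which encodes biglycan, had 68.9, 64.6, 59.6, 40.0 and 39.3 FPKM in Sham and 225.3, 113.4, 161.7, 166.1 and 236.1 FPKM in GSK, with no overlap. Lum, which encodes lumican, overlapped between groups at 53.6 to 80.3 and 57.4 to 148.6 FPKM, and its call (adjusted p = 0.0334) was lost without Sham replicate 1, 4 or 5 or GSK replicate 1, 3, 4 or 5 (0.0548 to 0.0777). Of 13 metalloproteinases and inhibitors 7 were called higher, among them Timp1, an inhibitor of metalloproteinases, from 2.77 to 7.15 FPKM to 15.4 to 70.9 FPKM, and Mmp2, the gelatinase, from 24.6 to 35.0 FPKM to 48.3 to 108.2 FPKM. That count was 4 without the mixed Sham libraries. Summed over the 19 listed collagens, Sham libraries held 374.4, 337.2, 342.5, 257.1 and 282.5 FPKM and GSK libraries 1922, 666.4, 571, 659.6 and 1374 FPKM. Every GSK library thus exceeded every Sham library in collagen, and replicates 1 and 5 held the most.

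**Figure D2:**
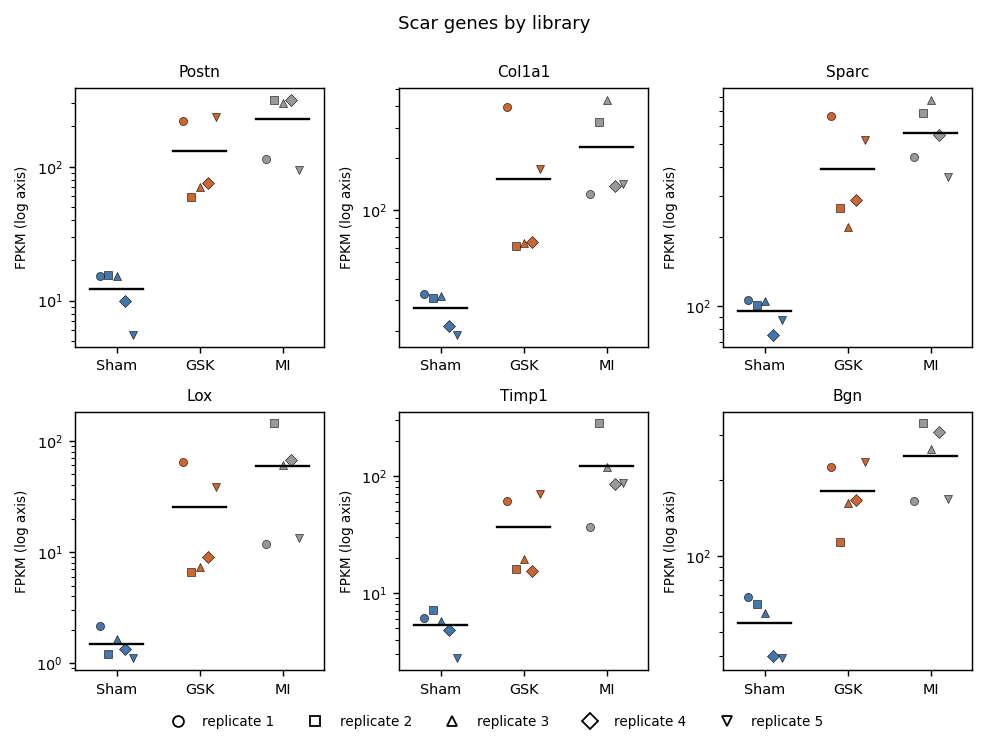
FPKM of 6 scar matrix genes (Postn, Col1a1, Sparc, Lox, Timp1, Bgn) in each Sham, GSK and MI library on log axes; marker shapes give the replicate number and horizontal lines the arithmetic mean. All 5 GSK libraries lie above all 5 Sham libraries in each panel, for Postn 59.3 to 234.9 FPKM against 5.56 to 15.6 FPKM.

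Of 16 fibroblast and myofibroblast markers, 7 were called higher and 2 lower. Meox1, a homeobox factor of activated cardiac fibroblasts, rose from 7.02 to 13.4 FPKM to 20.1 to 51.6 FPKM (log2 difference 1.46 ± 0.23 SE, adjusted p = 0.00216). Thy1, a surface protein of fibroblasts, rose by 0.98 ± 0.16 (SE) and Fap, fibroblast activation protein, by 0.53 ± 0.10 (SE) on the log2 scale. The fibroblast lineage receptor Pdgfra ranged from 6.08 to 8.28 FPKM in Sham and from 6.66 to 9.12 FPKM in GSK, and the proteoglycan Dcn from 107.3 to 146.4 and from 123.4 to 228.9 FPKM, overlapping in both. The 2 lower members were Gsn, the actin-severing protein gelsolin, from 739.7 to 1072 FPKM to 343.9 to 748.7 FPKM, and Acta2, smooth muscle actin. Acta2 had 87.9 to 129.8 FPKM in Sham and 55.6 to 98.5 FPKM in GSK (log2 difference -0.55 ± 0.18 SE, adjusted p = 0.0388). Of 12 pericyte and smooth muscle markers, 2 were higher (Pdgfrb and Cspg4, of pericytes) and 2 lower (Smtn and Lmod1, of smooth muscle). The part of smooth muscle cells in the Acta2 value was not tested. The call of Lmod1 (adjusted p = 0.0397) was lost without GSK replicate 5 (0.0913) and without 7 other single libraries, and that of Gsn without the mixed Sham libraries.

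Of 19 genes of the TGF-beta and activin pathway, which drives matrix production by fibroblasts, 9 were called higher and none lower. The ligand Tgfb2 rose from 1.57 to 2.80 FPKM to 2.94 to 4.89 FPKM, and the receptor Tgfbr2 from 9.61 to 11.8 FPKM to 14.6 to 19.5 FPKM (log2 difference 0.61 ± 0.09 SE, adjusted p = 0.00148). Fstl1, a secreted follistatin-like protein, rose by 1.99 ± 0.31 (SE), and Ltbp4, which binds latent TGF-beta, by 0.54 ± 0.12 (SE) on the log2 scale. Of 12 Wnt pathway genes 6 were higher, among them the receptors Fzd1 and Fzd2 at 0.65 ± 0.13 and 0.94 ± 0.17 (SE). Wnt5a, a ligand, was the 1 lower call of that list, with ranges of 2.06 to 3.94 and 1.22 to 2.16 FPKM that overlapped. Its call (adjusted p = 0.043) was lost without Sham replicate 1, 3, 4 or 5 or GSK replicate 2, 4 or 5 (0.0505 to 0.0951). In the BMP and growth differentiation factor list 3 of 10 were higher. Gdf6 was at 0.118 to 0.284 FPKM in Sham and at 7.82, 2.28, 1.07, 1.81 and 8.90 FPKM in GSK. It passed the filter through GSK libraries only, so its groups could not overlap. Of 8 genes of the IGF1 system 2 were higher, Igfbp7 from 150.8 to 220.3 FPKM to 344.5 to 658.3 FPKM and the growth factor Igf1 from 1.95 to 3.09 FPKM to 2.86 to 8.42 FPKM. Ace, the angiotensin-converting enzyme, had 18.3, 15, 14.9, 7.35 and 9.16 FPKM in Sham and 36.6, 30.8, 27.8, 42.0 and 56.5 FPKM in GSK (log2 difference 1.54 ± 0.25 SE, adjusted p = 0.00226).

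Cell division genes held some of the smallest p-values of the comparison. Of 40 listed mitosis and cell cycle genes 31 passed the filter, but 17 of these had no Sham library at 1 FPKM and passed through the GSK libraries only, so that they had to differ. Of the other 14, 11 were called higher and none lower. In the fit without a filter, where 1469 of 30196 genes were called higher, 37 of all 40 listed genes were called higher and none lower. Many genes of this kind are transcribed from promoters that carry a CHR element and CCAAT boxes, through which the DREAM complex holds them down in resting cells and MuvB with B-MYB switches them on in dividing ones. The promoters of Top2a and Ube2c are printed because both genes are among the 4 listed members of lowest p, with the CHR motif (TTTGAA, or TTCAAA on the other strand) and CCAAT (or ATTGG) in capitals. Each runs from 250 bases before to 50 bases after the annotated start, 5′ to 3′ along the gene, from RefSeq on GRCm38.p6 (mm10), at chr11:99024140-99024439 on the minus strand for Top2a and at chr2:164769679-164769978 on the plus strand for Ube2c.
Top2a: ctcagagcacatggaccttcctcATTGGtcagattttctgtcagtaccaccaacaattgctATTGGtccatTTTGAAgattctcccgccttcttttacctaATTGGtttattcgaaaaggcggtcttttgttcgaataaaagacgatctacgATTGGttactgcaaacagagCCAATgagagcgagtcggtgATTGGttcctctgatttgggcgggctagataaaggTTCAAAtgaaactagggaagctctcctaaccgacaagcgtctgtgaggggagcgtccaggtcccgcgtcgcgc
Ube2c: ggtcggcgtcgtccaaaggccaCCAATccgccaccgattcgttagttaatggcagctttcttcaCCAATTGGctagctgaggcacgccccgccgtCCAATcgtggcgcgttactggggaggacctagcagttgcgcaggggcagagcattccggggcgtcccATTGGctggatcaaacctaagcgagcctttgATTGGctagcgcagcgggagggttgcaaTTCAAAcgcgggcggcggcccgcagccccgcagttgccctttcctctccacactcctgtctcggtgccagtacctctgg
A promoter window was at hand for 24 of the 31 genes. Of these, 16 (66.7%) held CHR, 20 (83.3%) held CCAAT and 15 (62.5%) held both, counting both strands. Over the windows of all 27025 genes in the same table the shares were 20.2%, 41.1% and 8.97%. In Ube2c a CCAAT and an ATTGG match overlap.

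Top2a, the topoisomerase that untangles chromosomes (chr11:98992943-99024189, minus strand), had 0.475, 0.428, 0.846, 0.366 and 0.319 FPKM in Sham and 2.84, 3.92, 2.89, 4.71 and 4.19 FPKM in GSK (log2 difference 1.66 ± 0.13 SE, adjusted p = 0.000142). Every GSK library lay well above the highest Sham library. Ube2c, the ubiquitin-conjugating enzyme of the anaphase-promoting complex, had 0.399, 0.680, 0.790, 0.472 and 0.357 FPKM in Sham and 3.24, 4.76, 2.48, 4.60 and 4.73 FPKM in GSK (1.67 ± 0.15 SE, adjusted p = 0.000213). Aurkb, a kinase of chromosome segregation, rose from 0.112 to 0.403 FPKM to 1.61 to 2.22 FPKM. Mcm6, a subunit of the replicative helicase, rose from 1.91 to 2.35 FPKM to 4.57 to 5.81 FPKM (0.93 ± 0.07 SE, adjusted p = 0.000142), and its GSK values were close together. The list's summed level was 45.0 to 56.6 FPKM in Sham and 110.6, 150.1, 94.9, 130.4 and 147.1 FPKM in GSK, so here replicates 1 and 5 did not stand apart as they did for collagen. Top2a, Ube2c and Aurkb are among the 17 that passed through GSK only, and with a filter of 1 FPKM in all 10 libraries 6 members were left, of which 5 were called. Of 5 tested CDK inhibitors, which hold cells out of division, none was called higher. In the fit without a filter 2 of the 8 listed were called higher and 1 lower, at a median of 0.29. Over all 30196 genes of that fit 1469 were called higher and 1089 lower. Cdkn1c, the imprinted inhibitor p57 (chr7:143458339-143461050, minus strand), fell from 7.58, 6.68, 6.27, 6.34 and 8.90 FPKM to 3.76, 4.40, 4.57, 4.98 and 2.55 FPKM (log2 difference -0.70 ± 0.14 SE, adjusted p = 0.00573).

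Macrophage genes were higher: 16 of 25 tested, with none lower. Of the 16, 1 (Trem2) passed the filter through GSK libraries only. Cd68, a lysosomal glycoprotein of macrophages (chr11:69664213-69666153, minus strand), had 3.98, 5.02, 5.23, 3.98 and 4.65 FPKM in Sham and 18.1, 14.3, 17.0, 11.0 and 18.5 FPKM in GSK (log2 difference 1.57 ± 0.13 SE, adjusted p = 0.000162). No GSK library came near the highest Sham value. Csf1r, the receptor for the macrophage growth factor, rose from 9.26 to 11.9 FPKM to 16.4 to 23.0 FPKM, Trem2, a lipid-sensing receptor, from 0.281 to 0.486 FPKM to 1.53 to 3.89 FPKM, and the lysosomal protease Ctsb from 88.1 to 94.6 FPKM to 122.3 to 150.2 FPKM. The chemokines that draw monocytes rose with them: Ccl8 from 1.75 to 8.13 FPKM to 10.5 to 28.0 FPKM, Ccl12 from 1.23 to 2.21 FPKM to 3.21 to 11.1 FPKM, and Ccl7 from 1.01 to 2.09 FPKM to 2.21 to 6.15 FPKM. In the whole chemokine and cytokine list 8 of 15 were higher and 2 lower. Cxcl14 went down from 5.01, 5.19, 9.52, 4.52 and 11.0 FPKM to 2.74, 2.25, 4.01, 1.66 and 3.13 FPKM (log2 difference -1.06 ± 0.24 SE, adjusted p = 0.00962). Of 16 complement genes 6 were higher, including the receptors C5ar1 (0.86 ± 0.12 SE) and C3ar1 (1.00 ± 0.18 SE) and the C1q chain C1qb (0.84 ± 0.22 SE). The count was 3, without C1qb, when the mixed Sham libraries were left out.

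MHC class II genes did not follow, and too few neutrophil and lymphocyte genes passed the filter to tell for those lists. Of 6 tested MHC class II genes, which present antigen, none was called, with a median of -0.23, and the invariant chain Cd74 was at 62.4 to 82.1 FPKM in Sham and 51.0 to 79.1 FPKM in GSK. At an unadjusted p under 0.05 limma had 0 of them, and up to 2 were called lower in the alternatives. Only 3 of 12 neutrophil genes passed the filter, of which Lcn2, the iron-scavenging protein lipocalin-2, was called higher at 0.584 to 1.77 and 1.46 to 5.32 FPKM. Of 20 lymphocyte genes 2 passed, the immunoglobulin chains Igkc and Ighm. Igkc was at 21.5, 1.81, 1.20, 1.15 and 1.40 FPKM in Sham and 9.46, 1.81, 85.8, 2.10 and 9.63 FPKM in GSK, so Sham replicate 1 and GSK replicate 3 stood apart (adjusted p = 0.295). Neither gene had an unadjusted p under 0.05.

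Interferon response genes, the antiviral program that cells switch on when interferon binds its receptor, were higher in 16 of 21 tested and lower in none. Many promoters of this program hold the interferon-stimulated response element, searched here as GAAA, any 2 bases and GAAA on either strand (TTTC, any 2 bases and TTTC as printed on the other). The promoters of Ifit1 (chr19:34640639-34640938, plus strand) and Ifih1 (chr2:62646206-62646505, minus strand) are shown with matches in capitals, since both are among the members of lowest p and hold the motif at different places.
Ifit1: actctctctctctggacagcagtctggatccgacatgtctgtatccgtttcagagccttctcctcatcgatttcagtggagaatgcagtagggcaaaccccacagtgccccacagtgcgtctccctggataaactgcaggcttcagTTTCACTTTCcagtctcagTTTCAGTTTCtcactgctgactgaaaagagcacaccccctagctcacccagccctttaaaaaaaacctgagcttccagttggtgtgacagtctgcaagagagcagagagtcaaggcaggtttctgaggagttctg
Ifih1: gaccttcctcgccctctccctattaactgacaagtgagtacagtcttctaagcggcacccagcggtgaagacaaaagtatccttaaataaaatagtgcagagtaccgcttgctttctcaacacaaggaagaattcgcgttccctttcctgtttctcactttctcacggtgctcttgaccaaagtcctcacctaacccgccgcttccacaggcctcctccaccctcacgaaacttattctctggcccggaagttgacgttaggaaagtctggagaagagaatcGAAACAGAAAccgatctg
Windows were at hand for 18 of the 21 genes and 10 (55.6%) held the motif, against 3.99% of the 27025 genes.

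Ifit2, which binds foreign RNA, had 4.97, 6.12, 5.53, 3.96 and 4.31 FPKM in Sham and 9.16, 8.32, 7.603, 9.92 and 12.5 FPKM in GSK (log2 difference 0.81 ± 0.13 SE, adjusted p = 0.00236). Ifit1, its relative, had 2.77, 2.95, 3.16, 2.52 and 2.88 FPKM in Sham and 5.83, 4.79, 4.23, 7.21 and 8.07 FPKM in GSK (0.84 ± 0.14 SE, adjusted p = 0.00248). Ifih1, the RNA sensor MDA5, had 1.61, 1.58, 1.39, 1.24 and 1.51 FPKM in Sham and 2.31, 2.05, 2.05, 2.52 and 2.46 FPKM in GSK (0.41 ± 0.07 SE, adjusted p = 0.00311). Groups did not overlap in any of the 3 genes. Oasl2, an oligoadenylate synthetase-like protein, rose by 0.82 ± 0.11 (SE). In vehicle-treated infarcts the same genes had MI minus Sham differences of 0.35 for Ifit2, 0.43 for Ifit1 and 0.19 for Ifih1, and the list's median was 0.34 there against 0.49 in GSK. In the fit of all 15 libraries 5 members were called higher in MI and 9 in GSK against Sham. Both differences use the same Sham libraries. The difference between GSK and MI was 0.46 for Ifit2 (adjusted p = 0.154), 0.41 for Ifit1 (0.338) and 0.22 for Ifih1 (0.252) in limma's fit of 15 libraries, and was called for none of the 3.

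**Figure D3:**
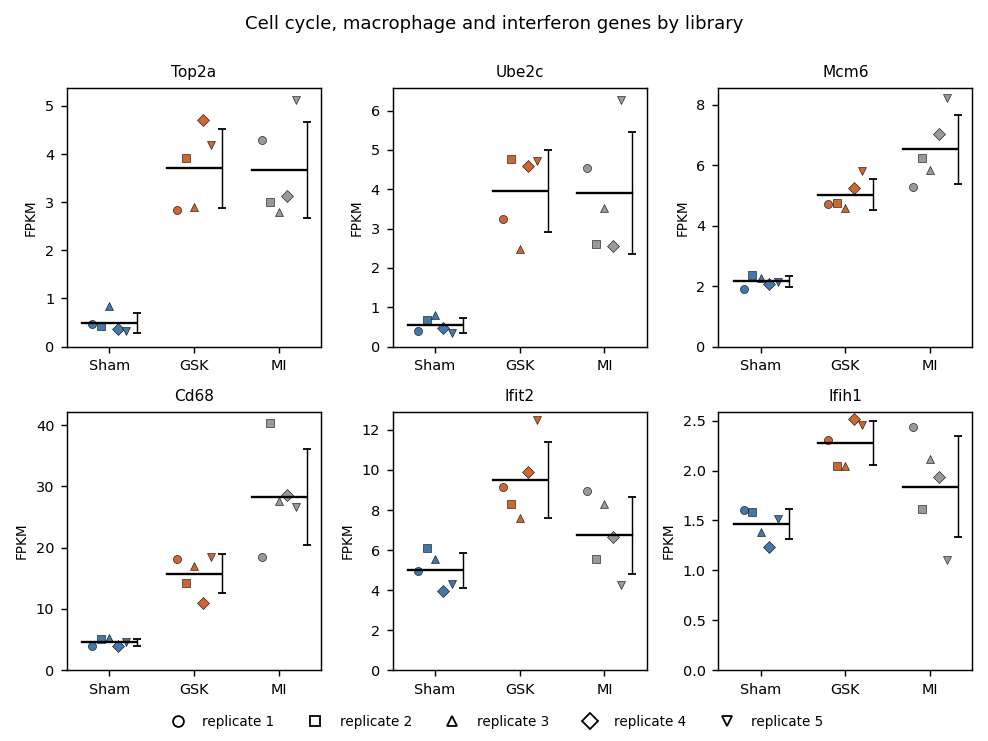
FPKM of 3 cell cycle genes (Top2a, Ube2c, Mcm6), the macrophage gene Cd68 and 2 interferon response genes (Ifit2, Ifih1) by library; lines are group means, bars the SD on linear axes, and shapes the replicate number. GSK lies above Sham in all 6 panels without overlap, for Cd68 11.0 to 18.5 FPKM against 3.98 to 5.23 FPKM. Top2a and Ube2c passed the filter through GSK libraries only, so their groups could not overlap.

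Of 20 stress and fetal genes of the heart, 9 were called higher and none lower. The MCAT element (CATTCC, or GGAATG on the other strand), bound by TEAD factors, is known from muscle promoters of this kind. The promoters of Ankrd1 (chr19:36119795-36120094, minus strand) and Nppb (chr4:147985650-147985949, plus strand) follow with matches in capitals, because Ankrd1 is among the 12 largest rises and Nppb belongs to the genes fixed for this tissue.
Ankrd1: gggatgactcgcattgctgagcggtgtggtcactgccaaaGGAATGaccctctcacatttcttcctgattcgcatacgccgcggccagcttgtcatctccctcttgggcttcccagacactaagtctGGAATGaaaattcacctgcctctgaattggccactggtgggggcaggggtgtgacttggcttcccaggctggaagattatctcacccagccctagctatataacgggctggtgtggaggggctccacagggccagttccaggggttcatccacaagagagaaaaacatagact
Nppb: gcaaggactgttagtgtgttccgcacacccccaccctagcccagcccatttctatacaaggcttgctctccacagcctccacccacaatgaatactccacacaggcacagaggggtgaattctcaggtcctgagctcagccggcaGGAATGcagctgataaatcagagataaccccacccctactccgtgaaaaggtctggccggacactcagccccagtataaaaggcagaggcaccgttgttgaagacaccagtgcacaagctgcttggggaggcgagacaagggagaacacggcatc
Of 19 listed genes with a window 9 (47.4%) held the motif, against 16.6% of all 27025 genes and 1 of 11 matricellular genes (9.09%).

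Ankrd1, a stretch-responsive ankyrin repeat protein of the sarcomere and nucleus, had 648.1, 692.4, 310.2, 236.3 and 142.8 FPKM in Sham and 1394, 1161, 1307, 1604 and 2970 FPKM in GSK (log2 difference 2.21 ± 0.43 SE, adjusted p = 0.00494). The groups did not overlap, and the mixed Sham libraries 1 and 2 held the highest Sham values. Nppb, which encodes the natriuretic peptide BNP, had 309.6, 281.1, 88.3, 91.3 and 10.2 FPKM in Sham and 452.6, 453.6, 261.0, 426.4 and 973.9 FPKM in GSK. Its groups overlapped, and its call (2.29 ± 0.78 SE, adjusted p = 0.0484) was lost without Sham replicate 3 or 4 (0.0838 and 0.0897) or without GSK replicate 1, 2, 4 or 5 (0.0700 to 0.105). Nppa, the atrial peptide ANP, ranged from 25.6 to 862.2 FPKM in Sham and from 216.9 to 1678 FPKM in GSK and was not called (adjusted p = 0.244). Its highest Sham value fell in replicate 4, the library with Bmp10. Acta1, skeletal alpha-actin, had 718.5, 379.3, 139.7, 92.4 and 29.6 FPKM in Sham and 390.0, 314.7, 812.8, 620.0 and 1775 FPKM in GSK, with overlap and no call (adjusted p = 0.0762). Myh7, the slow myosin heavy chain of the fetal ventricle, rose from 31.8 to 47.7 FPKM to 51.1 to 99.5 FPKM (0.90 ± 0.17 SE), a call lost with all 15 libraries in the fit. Sprr1a, a small proline-rich protein of stressed cardiomyocytes, was at 0 to 0.648 FPKM in Sham and at 9.19, 3.28, 3.10, 1.39 and 9.34 FPKM in GSK (2.06 ± 0.37 SE), beside a mean of 42.5 FPKM in MI. It passed the filter through GSK libraries only, so its groups could not overlap.

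**Figure D4:**
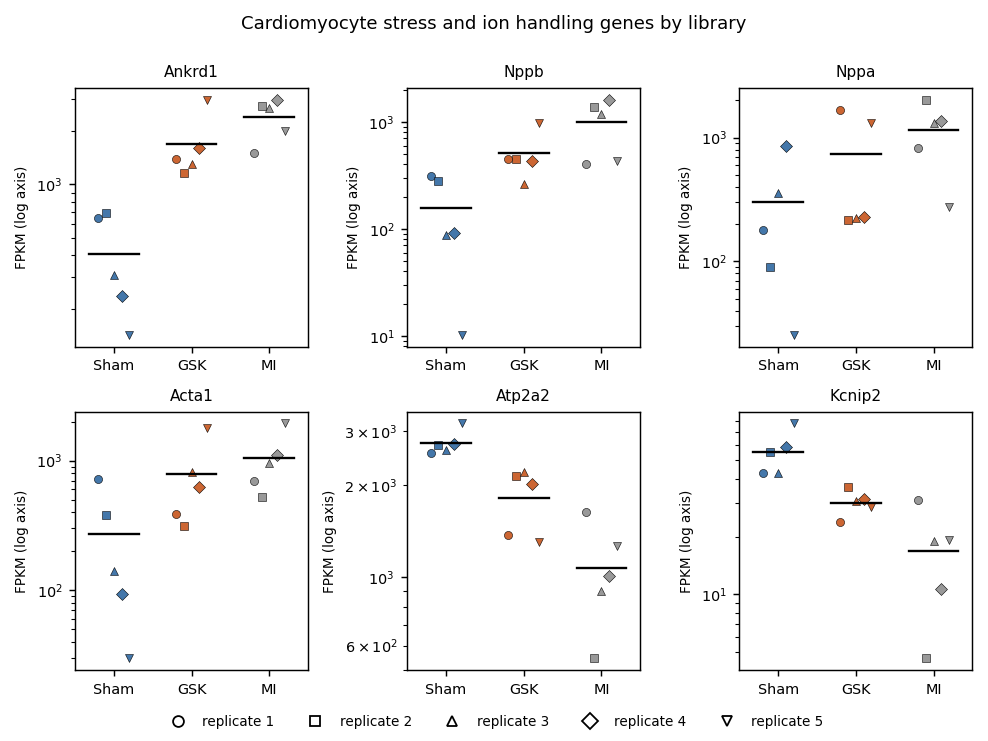
FPKM of 4 stress and fetal genes (Ankrd1, Nppb, Nppa, Acta1), the calcium pump gene Atp2a2 and the channel subunit gene Kcnip2 by library, all on log axes. Lines are arithmetic group means and shapes the replicate number. Sham libraries spread from 10.2 to 309.6 FPKM for Nppb, whereas Atp2a2 and Kcnip2 lie lower in every GSK library than in every Sham library.

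Genes of the contractile machinery moved less. Of 24 sarcomere and Z-disc genes 5 were called lower and none higher, with a median of -0.10 that became 0.20 under quantile normalization. Tnni3, cardiac troponin I, fell from 1600 to 2110 FPKM to 984.3 to 1690 FPKM, and Myl2, the ventricular light chain, from 2480 to 3584 FPKM to 1540 to 2727 FPKM, with overlap, and both calls were lost under quantile normalization. The call of Myh6 (-0.44 ± 0.15 SE, adjusted p = 0.0448) was lost without Sham replicate 5 (0.110) and without 7 other single libraries (0.0703 to 0.0936), and its difference was 0.18 under quantile normalization. Of 10 ventricular cardiomyocyte markers 6 were called lower, with a median of -0.44, and their summed level was 22030 to 28580 FPKM in Sham and 17510 to 25830 FPKM in GSK. These calls were not stable: none of the 10 was called lower without the filter on low values or under quantile normalization (median -0.06), 1 without the mixed Sham libraries, and 2 with all 15 libraries in the fit, without Sham replicate 4 or without Sham replicate 5. Leaving out Sham replicate 1 or 2 or GSK replicate 1, 3 or 4 gave 3 calls, and GSK replicate 5 gave 4. The part of this marker level in the falls of cardiomyocyte genes given next was not tested.

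Of 19 calcium handling genes 4 were lower and 1 higher. Atp2a2, the calcium pump SERCA2 of the sarcoplasmic reticulum (chr5:122453513-122502225, minus strand), had 2547, 2686, 2592, 2712 and 3170 FPKM in Sham and 1377, 2131, 2207, 2019 and 1299 FPKM in GSK (-0.63 ± 0.18 SE, adjusted p = 0.0224). No values overlapped, yet the call was lost without Sham replicate 5 (0.0588), GSK replicate 1 (0.0505) or GSK replicate 5 (0.052), and the difference was 0.09 under quantile normalization. Hrc, the histidine-rich calcium binder of the reticulum, fell from 307.3 to 416.8 FPKM to 141.3 to 265.7 FPKM (-0.93 ± 0.16 SE, adjusted p = 0.0033). Trdn, which encodes triadin, and Jph2, which holds the reticulum to the cell membrane, fell by 0.51 ± 0.11 and 0.54 ± 0.13 (SE) on the log2 scale, calls lost with the mitochondrial genes left out for Trdn and without the mixed Sham libraries for Jph2. Ion channels and connexins had 10 of 24 genes lower and 1 higher. Kcnv2, a modifier subunit of potassium channels, had 2.40, 3.30, 3.95, 3.52 and 4.99 FPKM in Sham and 0.507, 0.895, 1.16, 0.966 and 0.478 FPKM in GSK (-1.35 ± 0.15 SE, adjusted p = 0.000458). Kcnip2, the subunit that sets the transient outward current, had 42.6, 55.0, 42.7, 58.4 and 77.8 FPKM in Sham and 23.8, 36.1, 30.6, 31.5 and 28.5 FPKM in GSK (-0.83 ± 0.17 SE, adjusted p = 0.0057, lost with all 15 libraries in the fit). Both were lower in every GSK library. Scn4a, a sodium channel, fell by 0.77 ± 0.15 (SE) on the log2 scale, and Gjc1, connexin 45, was the 1 higher member (0.44 ± 0.10 SE).

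In adrenergic signalling 4 of 16 genes were lower and 1 higher, led by Adcy6, the main cardiac adenylyl cyclase, which fell from 40.1 to 52.9 FPKM to 25.6 to 35.6 FPKM (-0.58 ± 0.10 SE, adjusted p = 0.00377). Adra1b, an alpha-1 receptor, fell by 0.78 ± 0.19 (SE) on the log2 scale, a call lost without the mixed Sham libraries. Of 18 cardiac transcription factors 4 were lower and 1 higher. Klf15, a Kruppel-like factor of metabolic genes, had 25.02, 19.96, 33.5, 26.8 and 24.7 FPKM in Sham and 10.7, 14.99, 13.1, 10.5 and 8.94 FPKM in GSK (-1.10 ± 0.15 SE, adjusted p = 0.00113), with no overlap. Mef2d fell by 0.32 ± 0.08 (SE) on the log2 scale, a call lost without the mixed Sham libraries, and Tbx20 was higher by 0.38 ± 0.11 (SE), a call lost without GSK replicate 5 (adjusted p = 0.0709) and without GSK replicate 4 or Sham replicate 2, 4 or 5 (0.0537 to 0.0716).

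Genes of mitochondrial fatty acid oxidation were lower along the pathway, with 21 of 25 called lower and none higher. Acadm, the medium-chain acyl-CoA dehydrogenase (chr3:153922357-153944632, minus strand), had 309.7, 339.6, 299.7, 327.9 and 342.0 FPKM in Sham and 177.6, 248.5, 212.3, 204.7 and 155.0 FPKM in GSK (-0.71 ± 0.12 SE, adjusted p = 0.00317). Its groups did not overlap and GSK replicate 2 was nearest to Sham. Etfa, which passes electrons from the dehydrogenases to the respiratory chain (chr9:55454508-55512243, minus strand), had 341.1, 370.2, 356.1, 392.3 and 395.3 FPKM in Sham and 192.0, 276.3, 226.1, 211.3 and 179.8 FPKM in GSK (-0.78 ± 0.12 SE, adjusted p = 0.00182). Mlycd, which lowers the malonyl-CoA brake on fatty acid entry, fell by 0.78 ± 0.12 (SE) and Acadvl, the very-long-chain dehydrogenase, by 0.66 ± 0.13 (SE) on the log2 scale. The 4 members without a call included Acadl, at 462.8 to 548.0 FPKM in Sham and 356.1 to 465.1 FPKM in GSK (-0.30 ± 0.11 SE, adjusted p = 0.0619). The list's sum was 3778 to 4584 FPKM in Sham and 2195, 3321, 3026, 2920 and 2067 FPKM in GSK. Without the mixed Sham libraries 9 members were called, at a median of -0.55 against -0.57 as reported.

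Of 24 regulators and targets of the PPAR, PGC-1 and ERR factors 10 were lower and none higher. Ppara, the fatty acid receptor that drives oxidation genes (chr15:85734983-85802819, plus strand), had 12.04, 10.1, 14.5, 13.6 and 14.1 FPKM in Sham and 7.67, 8.04, 9.45, 8.80 and 5.92 FPKM in GSK (-0.63 ± 0.12 SE, adjusted p = 0.00529). Acot1, a thioesterase and PPAR target, fell from 5.26 to 7.74 FPKM to 0.674 to 3.19 FPKM. Ppargc1a, the coactivator PGC-1 alpha, was at 15.6 to 50.5 FPKM in Sham and 8.05 to 15.3 FPKM in GSK, a call (adjusted p = 0.0447) lost without GSK replicate 5 (0.1002), GSK replicate 1 (0.0868), GSK replicate 2 (0.0637) or Sham replicate 3, 4 or 5 (0.0605 to 0.0703). Pdk4, the kinase that closes pyruvate dehydrogenase, ranged from 91.3 to 402.4 FPKM in Sham and from 52.0 to 288.5 FPKM in GSK, without a call. The fatty acid carrier Cd36 and the lipase Lpl were not called either, with log2 differences of -0.21 ± 0.16 and -0.07 ± 0.20 (SE). For both genes GSK replicates 3 and 4 lay at or above the Sham values and GSK replicates 1 and 5 below them. Pparg had 2.30 to 4.91 FPKM in Sham and 2.48 to 4.203 FPKM in GSK. The ERR motif AAGGTCA, searched on both strands, stood in 1 of 21 oxidation promoters (4.76%, Acadm), 2 of 23 tricarboxylic acid cycle promoters (8.70%), 3 of 32 of complex I (9.38%) and 1 of 24 of complexes III and IV and the ATP synthase (4.17%), against 5.38% of all genes.

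Beyond oxidation, 16 of 27 genes of the tricarboxylic acid cycle and pyruvate entry were lower and none higher, among them the succinyl-CoA ligase subunits Suclg2 (-0.57 ± 0.09 SE) and Sucla2 (-0.56 ± 0.10 SE) and the succinate dehydrogenase subunit Sdha (-0.64 ± 0.13 SE). Of 36 nuclear complex I genes 27 were lower and none higher. Ndufa5, a subunit of its matrix arm, had 336.5, 378.1, 342.2, 442.8 and 381.0 FPKM in Sham and 235.5, 317.4, 199.7, 203.7 and 216.5 FPKM in GSK (-0.69 ± 0.14 SE, adjusted p = 0.00569), again with replicate 2 nearest to Sham. For the whole complex I list, GSK replicate 2 summed to 7181 FPKM, inside the Sham range of 6813 to 8001 FPKM, and the other 4 GSK libraries to 4452 to 5056 FPKM. Of 33 genes for complexes III and IV and the ATP synthase 19 were lower, led by Atp5f1 (-0.53 ± 0.10 SE) and Uqcrfs1 (-0.52 ± 0.12 SE). These 3 lists lost calls under other settings: 8 tricarboxylic acid cycle and 13 complex I genes were called with all 15 libraries in the fit, and 4 genes of complexes III and IV and the ATP synthase under quantile normalization, with none called higher. Of 18 genes that break down branched-chain amino acids 14 were lower, among them Mut (-0.56 ± 0.10 SE) and Aldh6a1 (-0.73 ± 0.15 SE).

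Messenger RNAs of the mitochondrial genome were less uniform. Of its 13 protein genes 3 were called lower, mt-Co2, mt-Atp8 and mt-Nd3, and 10 without GSK replicates 3 and 4. mt-Co2, a subunit of cytochrome oxidase, had 4358, 2783, 2966, 3246 and 3013 FPKM in Sham and 953.1, 969.0, 1987, 1536 and 854.7 FPKM in GSK (-1.44 ± 0.24 SE, adjusted p = 0.00261). It was lower in every GSK library, replicates 3 and 4 included. The call of mt-Nd3 (adjusted p = 0.0461) was lost without GSK replicate 1, 4 or 5 (0.0803 to 0.0990) and without any 1 Sham library (0.0542 to 0.107), and that of mt-Atp8 without the mixed Sham libraries. The genes for mitochondrial transfer and ribosomal RNAs, described after their values were seen, did not follow the messenger share. All 19 transfer RNA genes that passed the filter, of 22, were called lower, by 0.65 to 2.19 on the log2 scale, and 17 did not overlap. Summed over the 22, Sham libraries held 10220, 9181, 9572, 8749 and 10150 FPKM and GSK libraries 4024, 3319, 2903, 4050 and 4231 FPKM, so GSK replicates 3 and 4 were as low as the others. mt-Ty, the tyrosine transfer RNA, was at 842.3 ± 76.2 FPKM (SD, n = 5) in Sham and 251.5 ± 55.8 FPKM (SD, n = 5) in GSK (-1.77 ± 0.16 SE, adjusted p = 0.000213). Its lowest Sham value was 734.5 FPKM and its highest GSK value 307.1 FPKM. The ribosomal RNAs mt-Rnr1 and mt-Rnr2 were lower by -1.11 ± 0.17 and -1.20 ± 0.24 (SE), calls lost under quantile normalization (adjusted p = 0.0718 and 0.1002). Libraries were selected for poly-A tails and transfer RNAs are shorter than a read pair, so these values cover only the molecules that this preparation captured.

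**Figure D5:**
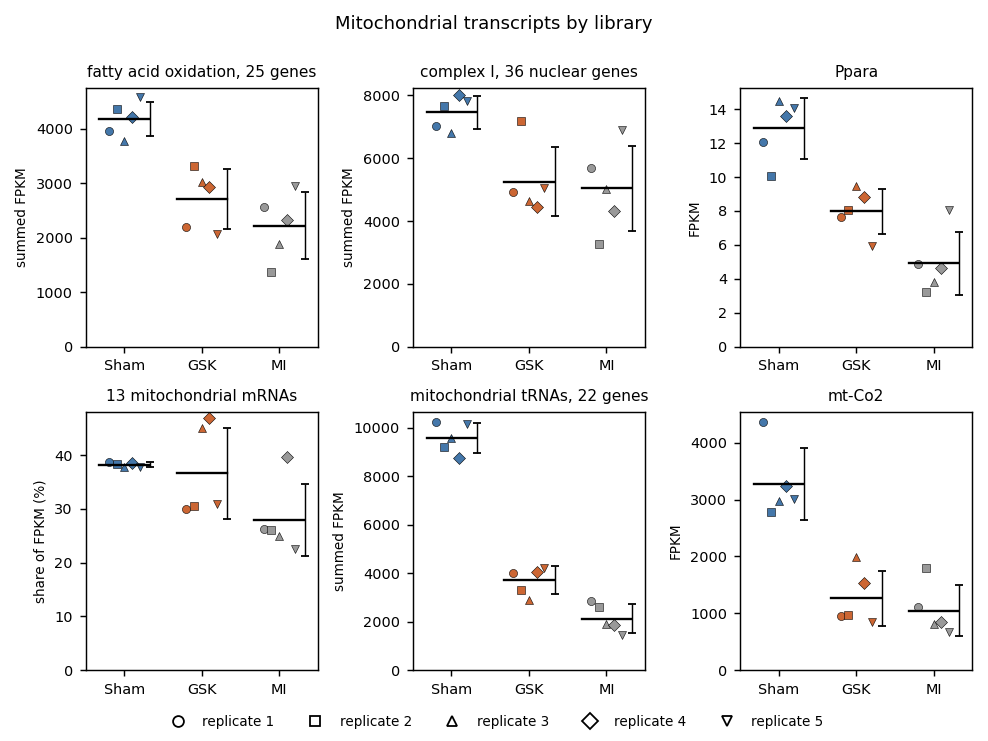
Summed FPKM of 25 fatty acid oxidation and 36 nuclear complex I genes, FPKM of Ppara and mt-Co2, the share of FPKM in the 13 mitochondrial messenger RNAs (%) and the summed FPKM of 22 mitochondrial transfer RNA genes, by library; lines are means, bars the SD, shapes the replicate number. GSK replicates 3 and 4 (45.0% and 46.8%) exceed Sham in the messenger share, while the transfer RNA sums of all 5 GSK libraries (2903 to 4231 FPKM) lie below all Sham sums (8749 to 10220 FPKM).

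In lipid storage, 8 of 22 droplet proteins and lipases were lower and none higher. Plin5, the perilipin of oxidative muscle, fell from 66.4 to 80.8 FPKM to 34.8 to 53.2 FPKM (-0.72 ± 0.12 SE, adjusted p = 0.0031), and Plin4 from 35.96 to 51.4 FPKM to 21.7 to 28.2 FPKM (-0.76 ± 0.10 SE, adjusted p = 0.00113). The fat cell markers Adipoq and Plin1 stayed between 0.239 and 4.41 and between 0.119 and 1.85 FPKM over the 10 libraries. None of the 7 tested adipocyte markers was called (1 at an unadjusted p under 0.05 in limma), at a median of -0.68, and up to 5 were called lower in the alternatives. The summed level of the listed adipocyte markers was lowest in Sham replicate 4, at 6.25 FPKM, and highest in Sham replicate 1, at 85.1 FPKM. GSK lay between 10.2 and 81.4 FPKM, so the groups overlapped. Slc27a1, a fatty acid transporter, fell from 34.0 to 45.4 FPKM to 15.5 to 27.4 FPKM. Synthesis genes split, with 6 of 25 triglyceride and fatty acid synthesis genes higher and 4 lower: the desaturases Fads1 and Fads2 rose by 0.51 ± 0.07 and 0.48 ± 0.08 (SE), and the acyltransferase Agpat3 fell by 0.58 ± 0.08 (SE) on the log2 scale. Of 21 cholesterol synthesis and uptake genes 4 were higher and none lower. Of 21 sphingolipid genes 9 were higher and none lower, at a median of 0.10. Sptlc2, a subunit of the enzyme that starts ceramide synthesis, rose from 2.76 to 3.06 FPKM to 3.71 to 4.85 FPKM (0.42 ± 0.07 SE, adjusted p = 0.0022), and the ceramidase Asah1 rose by 0.56 ± 0.10 (SE).

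Glucose use showed single changes: 2 of 22 transport and glycolysis genes were higher and 4 lower, with Eno1 at 0.40 ± 0.08 (SE) and Pfkfb2, the cardiac regulator of phosphofructokinase, at -0.61 ± 0.08 (SE, adjusted p = 0.000685). Of 11 NAD genes 3 were higher and 4 lower. Nampt, the salvage enzyme of NAD synthesis, fell from 37.6 to 52.0 FPKM to 22.5 to 37.3 FPKM, and Nnmt, which uses up nicotinamide, rose from 1.79 to 2.46 FPKM to 3.43 to 7.69 FPKM. Among 19 antioxidant genes 4 were higher and 2 lower, with Hmox1, the heme oxygenase, from 3.88 to 4.75 FPKM to 6.09 to 13.7 FPKM (1.07 ± 0.17 SE) and the mitochondrial Sod2 from 58.9 to 67.2 FPKM to 35.3 to 56.4 FPKM. Of 20 angiogenic ligands and receptors 6 were higher and 2 lower. Aplnr, the apelin receptor of growing vessels, had 8.87, 15.4, 8.81, 9.24 and 15.2 FPKM in Sham and 23.7, 26.3, 20.8, 25.9 and 31.7 FPKM in GSK (1.12 ± 0.18 SE, adjusted p = 0.00202), and Nrp2, a co-receptor, rose by 0.80 ± 0.09 (SE). Vegfa fell from 78.9 to 106.5 FPKM to 53.8 to 79.2 FPKM. The calls of Sod2 (with all 15 libraries in the fit), Nampt (with the mitochondrial genes left out) and Vegfa (without the mixed Sham libraries) were each lost in the setting named. Of 13 endothelial markers 3 were higher at a median of 0.19, Pecam1 among them from 29.3 to 32.1 FPKM to 33.8 to 41.2 FPKM.

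Of 10 tested PRC2 subunits of the Polycomb system 1 was called higher and 1 lower, shares near those of all genes tested. Ezh2, the enzyme that GSK-343 inhibits (chr6:47530139-47595341, minus strand), had 0.877, 0.837, 1.05, 1.13 and 1.06 FPKM in Sham and 1.197, 1.35, 1.395, 1.23 and 1.31 FPKM in GSK. Its values did not overlap, but the call (0.21 ± 0.07 SE, adjusted p = 0.0421) was lost without any 1 of the 10 libraries (0.05004 to 0.0988). An inhibitor of the protein's activity need not change its RNA, so this level is no check of the treatment. Ezh1, Eed and Suz12 were not called, with differences of -0.06 ± 0.07, -0.14 ± 0.06 and -0.11 ± 0.13 (SE). Of 19 PRC1 subunits 2 were higher and 2 lower, again near the background. Cbx7, which reads the histone mark, fell from 5.25 to 6.31 FPKM to 2.64 to 4.45 FPKM (-0.66 ± 0.10 SE, adjusted p = 0.00171). Kdm6b, a demethylase of the same lysine (chr11:69398508-69413675, minus strand), fell from 5.85 to 6.85 FPKM to 3.31 to 5.35 FPKM (-0.42 ± 0.10 SE, adjusted p = 0.0138), and Kdm6a was not called. Of 26 listed Polycomb target genes 15 passed the filter, of which 2 were higher (Sox9 and Gdf6) and 4 lower (Cdkn1c, Gata6, Hand2 and Meis2), at a median of -0.07. Gdf6 passed through GSK libraries only. Sox9, a regulator of cartilage and matrix genes, rose from 0.559 to 1.09 FPKM to 1.502 to 3.72 FPKM.

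Among noncoding classes, also described after their values were seen, 47 of 137 antisense genes were called lower (34.3%) and 4 higher, and of 171 long intergenic genes 42 lower (24.6%) and 10 higher. Of 10868 protein-coding genes 1411 were lower. The strand setting of the counting is not given in the sources used here, so reads of an antisense gene and its partner cannot be told apart. Exons of a gene on the other strand also overlap many of the genes named in the text. Among these are Lox, Fbn1, Eln, Csf1r, Ctsb, Tgfb2, Wnt5a, Cdkn1c, Ube2c and Myh7.

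Set beside vehicle-treated infarcts, which share the Sham libraries, the GSK median was nearer to 0 than the MI median for collagens (1.20 and 1.59), macrophage genes (0.74 and 1.18), stress genes (0.83 and 1.41), ion channels (-0.31 and -0.71) and fatty acid oxidation (-0.57 and -0.89). For complex I the medians were -0.51 and -0.57. The GSK median was farther from 0 for matrix proteoglycans (0.65 and 0.30) and interferon response genes (0.49 and 0.34). These differences between medians were not tested. By the ratio of the 2 differences, the called genes least changed in GSK relative to MI were Zbtb20, Asb15, Plaur, Mylk4 and Tspan4. Their calls against Sham were weak: those of Zbtb20, Asb15 and Plaur were lost without GSK replicate 5 (adjusted p = 0.0694, 0.0763 and 0.0546) and without 2 to 6 other single libraries, and those of Mylk4 and Tspan4 without the mixed Sham libraries. Mylk4, a myosin light chain kinase relative, had means of 24.6 FPKM in Sham, 14.9 FPKM in GSK and 6.22 FPKM in MI. The largest ratios belonged to Cxcl14, Chil1, Pamr1, Nusap1 and Trim59, with Chil1, a chitinase-like protein, at 0.403, 1.82 and 1.03 FPKM in Sham, GSK and MI. The test of GSK against MI in the fit of 15 libraries called 4 of 12015 genes (0.0333%), all higher in GSK, with 2542 at an unadjusted p under 0.05. They were Zbtb20, a zinc finger repressor, Tnrc6b, of microRNA silencing, Ctf1, which encodes cardiotrophin-1, and the long noncoding Gm48483, the last 3 named after their values were seen. Ctf1 had means of 3.75 FPKM in Sham, 3.05 in GSK and 1.52 in MI, and Zbtb20 of 12.2, 9.07 and 4.93 FPKM, each with adjusted p = 0.0456 for GSK against MI. Leaving out 1 MI or GSK library gave 380 calls without MI replicate 1, 280 without GSK replicate 5, 29 without MI replicate 4, 7 without GSK replicate 1 and 0 in the other 6 cases. A fit of the 10 GSK and MI libraries alone gave 0.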

How the data were processed

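Total RNA of the left ventricle (1000 ng, RNA integrity number above 8) was selected for poly-A tails and sequenced as 150-nt read pairs, per the labels' protocols. The build was mm10, and the tools named in the submitters' processing notes include HISAT2, Subread's featureCounts, R 3.5.1 and DESeq2. Neither the annotation release nor the strand setting of the counting is given in the sources used here. The authors deposited FPKM values per gene and library. The table holds 54532 genes. FPKM times gene length gave whole multiples of 1 step in each library (100% of values within 0.01), from which fragments were recovered for the depth and for 1 alternative.

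Genes with FPKM of 1 or more in 5 or more of the 10 GSK and Sham libraries were kept. The values log2(FPKM + 1) were fitted with limma 3.58.1 in R 4.3.3, with a mean trend in the empirical Bayes step and Benjamini-Hochberg adjustment over the 12015 genes. All adjusted p-values in the text are from limma. On this scale the fold of a low gene comes out too small. GSK minus MI and MI minus Sham come from a fit of all 15 libraries on the same genes. The main fit of GSK against Sham was tested on simulated data, and its alternatives were not. Apart from the mixed Sham libraries the names give 1 animal each; litters and days of preparation are not stated. The share of mitochondrial messenger RNA was compared with an exact two-sided permutation test.

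Genes named in the text are the 12 largest rises and falls among called protein-coding genes without overlap between groups, up to 4 members of each list (called ones of lowest p), a fixed set of 27 genes and the 5 smallest and largest ratios to MI minus Sham. Myh1, Myh2, Myh4, Acta2, Acadl, Gata6, Meis2, Pdgfra, Dcn, Bmp10, Myl7, Adipoq, Plin1 and the genes named so in the text stand outside that rule or come from marker lists, and were chosen after their values were seen. Some genes that the rule names are not reported here. The members and the 64 gene lists were chosen with earlier results of these data known. Promoter sequences are from RefSeq (GRCm38.p6).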

Additional observations from a re-analysis of the deposited data

Results flagged for a closer look

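In groups of 5 libraries, the highest or lowest library was called apart when its gap to the next, divided by the range of the group, passed 0.71. Chance gives this in about 1 of 20 groups. Of 348 groups looked at, 31 (8.91%) passed, and since they share libraries they are not independent.

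GSK replicate 2 was high for energy and contraction genes: Acadvl at 207.1 FPKM, Sdha at 398.4, Uqcrfs1 at 639.2, Tnni3 at 1690, Myh6 at 3102 and the summed complex I list at 7181 FPKM. The other 4 GSK libraries lay at 128.4 to 150.3 FPKM for Acadvl and at 4452 to 5056 FPKM for complex I. In GSK replicate 3 the immunoglobulin genes were high, Igkc at 85.8 FPKM and Ighm at 62 FPKM, as were the fat cell genes Adipoq at 3.16 FPKM and Plin1 at 1.42 FPKM and the summed adipocyte markers at 81.4 FPKM, while Gjc1 was low at 5.12 FPKM. GSK replicate 5 was high for Ankrd1 at 2970 FPKM, Nppb at 973.9 and Thbs4 at 76.6, and low for Meis2 at 1.52 FPKM. GSK replicate 1 was high for Eln at 369.8 FPKM, Myl7 at 269.6 and Pamr1 at 6.92, and GSK replicate 4 for mt-Rnr1 at 1657 FPKM.

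Among Sham libraries, replicate 1 was high for Igkc at 21.5 FPKM, Ighm at 14.2 and Ppargc1a at 50.5, and replicate 2 was low for Gm48483 at 1.296 FPKM. Sham replicate 3 was high for Ccl8 at 8.13 FPKM, C1qb at 62.3, Col3a1 at 55.3 and the summed mitosis list at 56.6 FPKM. Sham replicate 4 was high for mt-Nd3 at 723.1 FPKM, and Sham replicate 5 for Atp2a2 at 3170 FPKM and Mut at 46.8 FPKM.

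The difference between GSK and MI passed limma's test in 4 genes, which differ between the 2 infarcted groups by 0.76 for Zbtb20, 0.43 for Tnrc6b, 0.68 for Ctf1 and 0.70 for Gm48483 on the log2 scale. These 4 calls depended on which libraries were in the fit, with 380 without MI replicate 1, 280 without GSK replicate 5 and 0 to 29 without any other single MI or GSK library. Leaving out a Sham library was not tried for GSK against MI.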

How the results depend on the processing

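For GSK against Sham, 255 genes were followed over 23 alternatives. They were the genes of the naming rule and mt-Ty, mt-Tl1, mt-Rnr1, mt-Rnr2, Ctf1, Tnrc6b and Gm48483, added after their values were seen. Of the 233 called among them, 151 were called in each alternative that tested them (26 of these were not tested under the filter of 1 FPKM in all 10 libraries). The call was lost at least once for 82, and 2 changed direction in 1 alternative: under quantile normalization Atp2a2 was at 0.093 and Myh6 at 0.18 on the log2 scale. The number of genes called lower, 1620 as reported, was 957 with all 15 libraries in the fit, 765 with mitochondrial genes left out and totals equalised, 1089 of 30196 genes without the filter on low values and 945 without the mixed Sham libraries. Leaving out 1 replicate at a time gave 1197 to 1776 higher and 977 to 2015 lower calls. Replicate numbers did not pair the libraries: the correlation of same-numbered GSK and Sham deviations ran from -0.221 to 0.027, and each number correlated better with another. With the replicate block the calls were 1255 higher and 1103 lower, and GSK against MI had 0. GSK against MI gave 0 calls in the 10 libraries of these groups alone and with mitochondrial genes left out, and 0 to 380 with 1 MI or GSK replicate left out. The mitochondrially encoded share of FPKM, GSK against Sham, had a difference of -1.59 percentage points, which ran from -4.13 without GSK replicate 4 to 0.066 without GSK replicate 1. Why the values moved was not tested, except that fewer libraries or genes were fitted where the setting says so.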

Other observations

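In the interleukin 6 family 2 of 8 tested genes were higher and 2 lower. The lower ones were the receptor subunits Lifr and Cntfr, at -0.47 ± 0.10 and -0.74 ± 0.18 (SE) on the log2 scale without overlap between GSK and Sham, and the call of Lifr was lost with the mitochondrial genes left out. Of 15 circadian clock genes 4 were lower and 2 higher: Cry1, a repressor of the clock, fell from 5.29 to 8.36 FPKM to 3.28 to 4.71 FPKM, and Npas2, an activator, rose from 1.68 to 2.92 FPKM to 3.04 to 4.49 FPKM. The Npas2 call was lost without the filter on low values (adjusted p = 0.0517), with the replicate block (0.0601) and without GSK replicates 3 and 4 (0.056). For Npas2 the difference of MI from the same Sham libraries was 0.13, against 0.49 for GSK, and GSK against MI was not called (adjusted p = 0.191). In the list of ATF4 targets 5 of 14 were higher and 1 lower, with Psat1, of serine synthesis, at 0.64 ± 0.11 (SE) and Chac1, which breaks down glutathione, at -0.66 ± 0.14 (SE). Of 17 heat shock and chaperone genes 1 was higher and 3 lower. The mitochondrial chaperones Hspd1 and Hspe1, which overlap on opposite strands so that their reads may not be told apart, were at -0.50 ± 0.12 and -0.37 ± 0.09 (SE), and Hspa2 was the higher member at 0.64 ± 0.10 (SE). The calls of Hspd1 and Hspe1 were lost without the mixed Sham libraries, and that of Hspe1 also with all 15 libraries in the fit, with the mitochondrial genes left out and with the replicate block.

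In the list of cholesterol efflux and LXR targets 5 of 13 genes were higher and 1 lower. Ch25h, the cholesterol 25-hydroxylase, which overlaps a gene on the other strand, rose from 0.210 to 1.01 FPKM to 1.14 to 3.30 FPKM, and the lysosomal lipase Lipa rose by 0.58 ± 0.09 (SE). Of 20 phospholipid and cardiolipin genes 2 were higher and 6 lower, with the enzymes Chpt1 (also overlapped on the other strand), Taz and Pcyt2 at -0.42 ± 0.07, -0.37 ± 0.07 and -0.34 ± 0.08 (SE), the call of Pcyt2 being lost with all 15 libraries in the fit. Of 10 genes of the creatine and adenylate kinase shuttle 2 were higher and 3 lower: the brain-type kinase Ckb was higher at 27.1 to 38.1 FPKM against 20.0 to 24.0 FPKM in Sham, and the adenylate kinase Ak4 was lower at -0.46 ± 0.10 (SE).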
